A study of Mus musculus with 6 samples.

Results

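The 45 genes described here encode the machinery that copies DNA in S phase, from the proteins that mark origins to the enzymes that supply nucleotides. They were chosen by name from a fixed list of DNA replication and S phase genes, with earlier results of these data known. All 45 were found among the 19270 genes of the table. Bulk RNA-seq was performed on mesenchyme dissected, per the methods of the study, from the proximal end of mouse incisors (labelled only as incisor) 4 days after tamoxifen, which was given when the mice were 1 month old, with 3 control libraries and 3 mutant libraries. The mutants were *Gli1-CreER;Arid1bfl/fl* mice, in which tamoxifen activates a Cre recombinase in *Gli1*-expressing cells and their descendants, in mesenchyme and epithelium, so that other cells of the sample keep *Arid1b*. The *Gli1-CreER* allele is a knock-in at *Gli1* itself. The controls were given tamoxifen as well, and their genotype is wild type in the sample labels and *Arid1b*fl/fl in the methods of the study. The gene table holds the authors' mean of each group, a normalized signal per gene, and values of single libraries were not used here for genes. The means below therefore carry no SD, no difference between the groups was tested across mice, and every comparison is one of size.

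The mouse incisor grows throughout life. Slow-cycling mesenchymal stem cells (MSCs) at its proximal end give rise to transit-amplifying cells (TACs), which divide rapidly before they differentiate. DNA replication begins with licensing, in which the origin recognition complex (ORC), CDC6 and CDT1 load the ring-shaped MCM helicase onto DNA in G1. CDC45 and the GINS complex then activate the helicase, the clamp PCNA is loaded by the RFC complex, and polymerases copy both strands. Many of these genes are targets of E2F transcription factors, which are held back by RB proteins in resting cells, whereas genes of G2 and mitosis are bound by the DREAM and B-MYB-FOXM1 complexes through an element named CHR.

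Promoter sequences show this division of the cell cycle genes. The letters TTTCCCGC, TTTGGCGC, TTTCGCGC and TTTGCCGC were searched as E2F sites, TTTGAA as the CHR and CCAAT as the CCAAT box, on both strands, in windows from 250 bases before to 50 bases after each RefSeq start (GRCm38.p6). A window was found for 38 of the 45 genes, and not for *Ccne2*, *Gins1*, *Gins2*, *Gins4*, *Mcm4*, *Pole* and *Rfc2*. E2F letters were found for 17 of the 38 genes (44.7%), compared to 4.33% of the 12719 genes of the table with a window. The CHR letters were found for 5 of the 38 (13.2%), compared to 15.1% of the 12719. Among 30 genes of mitosis and G2/M the shares were reversed, with E2F letters for 1 of 25 genes with a window (4.00%) and CHR letters for 18 (72.0%). CCAAT was common in both groups, at 65.8% and 80.0%, compared to 42.3% of the 12719. E2F letters were found for 4 of 5 MCM subunit genes and for none of the 4 genes of nucleotide supply. A match describes the letters only, and binding was not measured. Only these exact letters within the windows were searched, so a missing match does not show that a gene lacks a site.

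The stretches below show both kinds of promoter. Each is the 200 bases that end at the base before a RefSeq start, holds no exon in GENCODE vM21, and is written 5′ to 3′ on the strand of its gene. Capitals mark E2F letters in *Mcm5*, *Mcm6* and *Pola1* and CHR letters in *Top2a*, a topoisomerase of G2 and mitosis shown for contrast. In *Mcm5* and *Mcm6*, a pair of matches on opposite strands overlaps. The stretches lie at chr8:75109309-75109508 (plus strand) for *Mcm5*, chr1:128359706-128359905 (minus strand) for *Mcm6*, chrX:93632156-93632355 (minus strand) for *Pola1* and chr11:99024190-99024389 (minus strand) for *Top2a*.
Mcm5: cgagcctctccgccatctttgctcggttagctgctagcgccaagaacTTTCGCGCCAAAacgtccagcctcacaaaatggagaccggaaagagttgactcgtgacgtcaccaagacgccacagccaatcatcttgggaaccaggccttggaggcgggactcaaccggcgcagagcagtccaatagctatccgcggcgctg
Mcm6: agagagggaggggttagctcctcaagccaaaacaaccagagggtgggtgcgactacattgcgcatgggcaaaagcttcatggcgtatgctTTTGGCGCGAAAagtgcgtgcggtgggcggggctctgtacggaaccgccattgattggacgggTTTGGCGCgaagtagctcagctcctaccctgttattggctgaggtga
Pola1: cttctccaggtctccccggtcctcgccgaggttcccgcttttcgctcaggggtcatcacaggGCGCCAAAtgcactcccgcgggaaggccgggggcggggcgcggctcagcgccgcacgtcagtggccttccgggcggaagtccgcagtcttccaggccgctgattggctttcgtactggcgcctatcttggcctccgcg
Top2a: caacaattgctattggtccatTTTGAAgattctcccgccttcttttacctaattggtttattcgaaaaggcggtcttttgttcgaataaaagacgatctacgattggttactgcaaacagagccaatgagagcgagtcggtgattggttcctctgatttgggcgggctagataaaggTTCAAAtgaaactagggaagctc

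**Figure D1:**
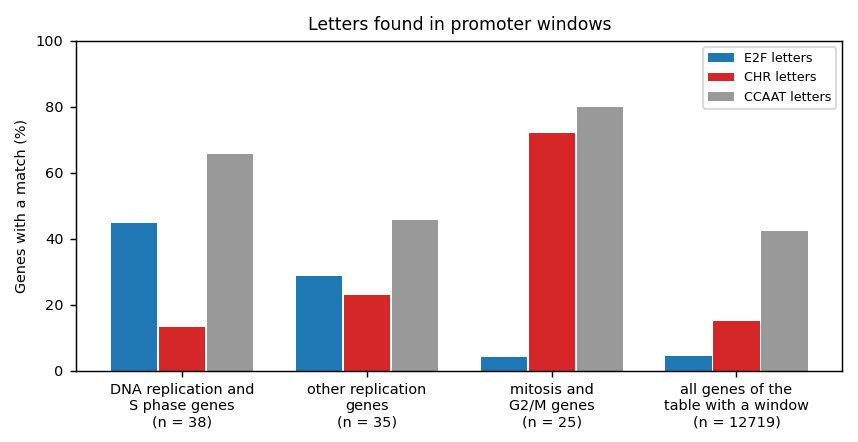
Share of genes (%) whose promoter window holds E2F, CHR or CCAAT letters, as bars, in the 38 DNA replication and S phase genes with a window, 35 other replication genes, 25 mitosis and G2/M genes and all 12719 genes of the table with a window. E2F letters stand at 44.7% in the first group and CHR letters at 72.0% in the third.

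The targeted gene *Arid1b* had a mean of 97.6 in control and 38.0 in mutant incisors, and *Gli1* had 106.4 and 46.1. The upper quartile of the normalized values was 44.57 to 44.58 in all 6 libraries. If the lowest value of a library is 1 count added to every gene, the libraries held 37123643 to 49594469 further reads on these genes. Depth is not stated in the sources used here. *Ddx3y*, a Y-linked gene named here after its value was seen, had a control mean of 0.0259, the lowest of the column, and a mutant mean of 65.3, and *Xist*, which is expressed from the inactive X chromosome of females, had 3368 and 813.8. The control mean of *Ddx3y* lies at the lowest normalized values of the control libraries (0.0248 to 0.0265). By *Ddx3y* and *Xist*, the groups differed in their make-up by sex. The sexes of the mice are not given in the labels, and the part of sex in any difference cannot be told apart from that of genotype in group means.

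The label of the gene group was checked first. The 3 genes that mark it, *Mcm2*, *Pcna* and *Pclaf*, were all expressed. *Pcna*, the sliding clamp, had a control mean of 41.7 per kb of exons, above 95.5% of the 18840 genes with a length. *Pclaf*, a PCNA-binding factor that marks TACs in this tissue, had 11.2 per kb, above 78.7% of these genes. *Mcm2* had 6.66 per kb, above 66.5%.

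The DNA replication and S phase genes were expressed at nearly the same level in control and mutant incisors. The mutant mean was between 14.6% lower (*Gins1*) and 13.9% higher (*Rfc3*) than the control mean for all 45 genes, and it was within 10% of the control mean for 41 and within 5% for 26. None of the 45 was past 1.5-fold in either direction. Over all 19270 genes, 7.37% were past 1.5-fold higher in the mutants and 5.80% lower. Many of those genes are outside the levels of the 45, so the 10611 genes with a mean over both groups between 3.36 and 100.1, the lowest and highest of the 45, were used as a second background. Of these, 3.28% were past 1.5-fold higher and 1.37% lower. At 1.2-fold the shares were 9.67% and 7.21% of the 10611 genes, and again 0 of the 45. Within 10% of the control mean were 6915 of the 10611 genes and 9914 of all 19270. Within 5% were 4178 of the 10611 and 5932 of all 19270, so most genes at these levels also differed little. The median log2 fold change of mutant over control was 0.018 for the 45 genes, compared to 0.0022 for all genes and 0.0093 for the second background. The mutant mean was the higher one for 31 of the 45 (68.9%), for 50.5% of all genes and for 52.8% of the second background. Scaling by column totals in place of the deposited scale added 0.061 to every log2 value, which made this 39 of the 45, 63.7% of all genes and 69.4% of the second background. In bulk tissue, the number of cells in S phase and the amount of RNA per cell cannot be told apart.

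**Figure D2:**
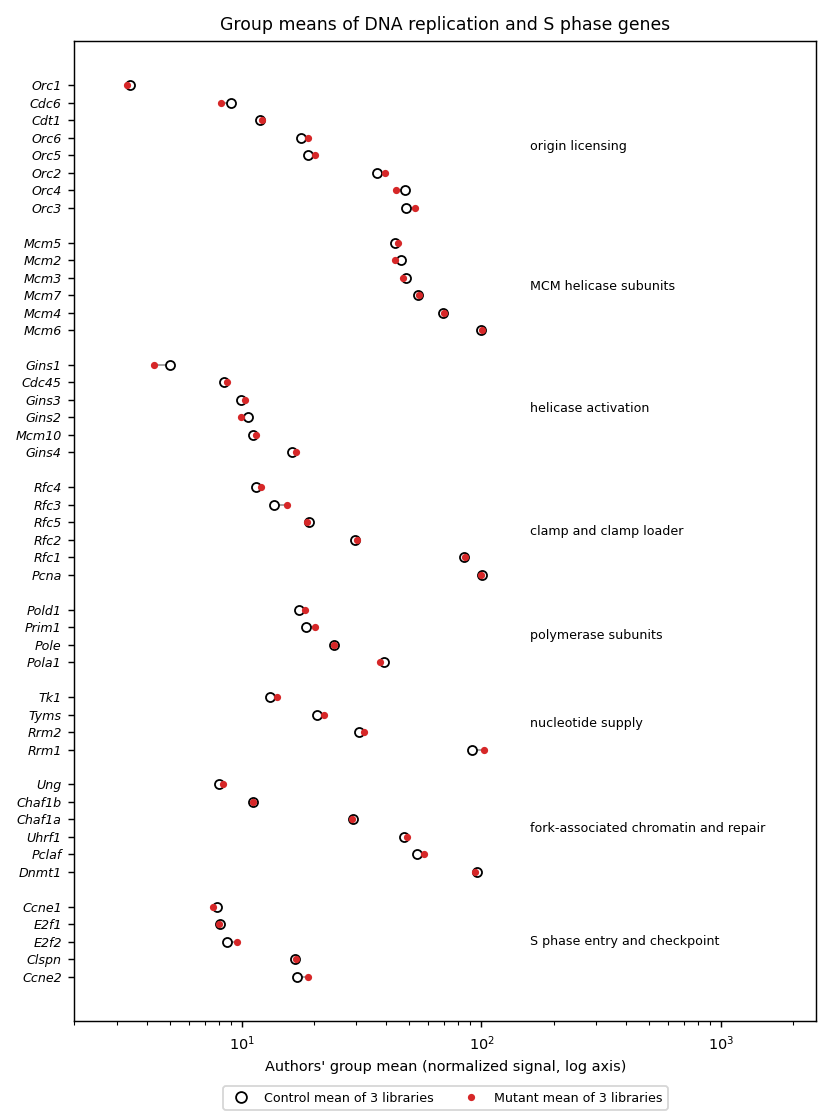
Authors' group means of the 45 genes (normalized signal, log axis), with 1 row per gene grouped by role, open circles for the mean of the 3 control libraries and red points for the mean of the 3 mutant libraries. The pairs lie close together at every level, from *Orc1* at 3.41 and 3.31 to *Mcm6* at 100.04 and 100.08 (control and mutant). The widest pair is *Gins1*, at 5.02 and 4.29.

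Genes of origin licensing spanned the same narrow range. The 6 ORC subunits are needed in every cell that will divide, and *Orc1* is the subunit whose level follows the cell cycle. *Orc1* had the lowest level of all 45 genes, with means of 3.41 in control and 3.31 in mutant incisors. *Orc2*, *Orc3*, *Orc5* and *Orc6* had slightly higher means in the mutants, by 8.52%, 8.34%, 6.41% and 7.72%. *Orc4*, in contrast, was 8.24% lower, with means of 48.1 and 44.1. The ATPase *Cdc6*, which helps load the helicase, was 9.12% lower in the mutants, at 8.20 against 9.02. Its partner *Cdt1*, which delivers the MCM ring to origins, differed by 1.25% (11.9 in control and 12.1 in mutant incisors). For the 8 genes as a whole the median log2 value was 0.054, and 5 were higher.

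The 6 subunits of the MCM2-7 helicase form a ring in equal numbers, and their levels were close to those of the controls. *Mcm6* was the most abundant of them, with means of 100.04 in control and 100.08 in mutant incisors. *Mcm4* had means of 69.3 and 69.9, and *Mcm7* had 54.3 and 54.7. These 3 genes differed by less than 1% between the groups. *Mcm5* was 3.57% higher in the mutants, *Mcm3* was 2.87% lower, and *Mcm2* was 6.43% lower with means of 46.4 in control and 43.4 in mutant incisors. The summed mean of the 6 subunits was 361.7 in control and 360.1 in mutant incisors.

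Genes that activate the helicase had lower means than the MCM2-7 subunits. Per kb of exons this did not hold for *Gins4*, at 11.99 in the controls compared to 6.66 for *Mcm2*. *Cdc45* had means of 8.46 in control and 8.65 in mutant incisors, and *Mcm10*, a factor needed for origin firing, had 11.1 and 11.4. The 4 GINS subunits differed in direction. *Gins1* had means of 5.02 and 4.29, the largest relative difference of the 45 genes, and *Gins2* had 10.7 and 9.90. *Gins3* and *Gins4* were 4.09% and 3.85% higher in the mutants. Of the 45 genes, *Orc1* alone had a lower control mean than *Gins1*.

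For the clamp and its loader, *Pcna* had means of 100.1 in control and 99.9 in mutant incisors, a difference of 0.251%. *Rfc1*, the large subunit of the loader, had 84.4 and 85.3, and *Rfc2* had 29.7 and 30.1. *Rfc4* was 5.33% higher and *Rfc5* 1.63% lower in the mutants. *Rfc3* stood apart from the other loader subunits, with means of 13.6 in control and 15.5 in mutant incisors. Its log2 fold change of 0.19 was the highest of the 45 genes.

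Among polymerase genes, *Prim1*, the catalytic subunit of primase, was 9.90% higher in the mutants, with means of 18.4 and 20.3. *Pold1*, the catalytic subunit of the lagging-strand polymerase, was 6.02% higher. *Pole*, that of the leading-strand polymerase, had means of 24.1 and 24.3. *Pola1*, the polymerase that extends the primer, was 3.26% lower, at 37.9 in the mutants against 39.2 in the controls.

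The 4 genes of nucleotide supply were all higher in the mutants, and the differences were small. *Rrm1*, the large subunit of ribonucleotide reductase, had means of 90.9 in control and 103 in mutant incisors, which is 13.2% higher. *Rrm2*, the subunit that limits the enzyme in S phase, was 4.18% higher. *Tyms* and *Tk1*, which make thymidylate by the de novo and the salvage route, were 7.02% and 6.86% higher. The median log2 fold change of the 4 genes was 0.10, the highest of the 8 role groups. Whether this differs from the other roles was not tested.

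Factors that follow the fork showed no common direction. *Pclaf* had means of 53.9 in control and 57.4 in mutant incisors, 6.55% higher. *Uhrf1* and *Dnmt1*, which together copy DNA methylation onto the new strand, had 47.4 and 48.8, and 95.7 and 93.8, respectively. *Chaf1a* and *Chaf1b*, subunits of the CAF-1 complex that places histones on new DNA, differed by 1.10% and 0.438%. *Ung*, which removes uracil from DNA, was 4.10% higher in the mutants.

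Regulators of S phase entry were also close to the control level. *E2f1* had means of 8.10 in control and 8.03 in mutant incisors, and *E2f2* had 8.69 and 9.56. The cyclin E genes, whose products drive the entry into S phase with CDK2, differed in direction, with *Ccne1* 4.20% lower and *Ccne2* 10.7% higher in the mutants. *Clspn*, which relays the replication checkpoint, had means of 16.7 and 16.8. Members with E2F letters in their promoter had a median log2 fold change of 0.018 (17 genes), and those without had 0.044 (21 genes).

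**Figure D3:**
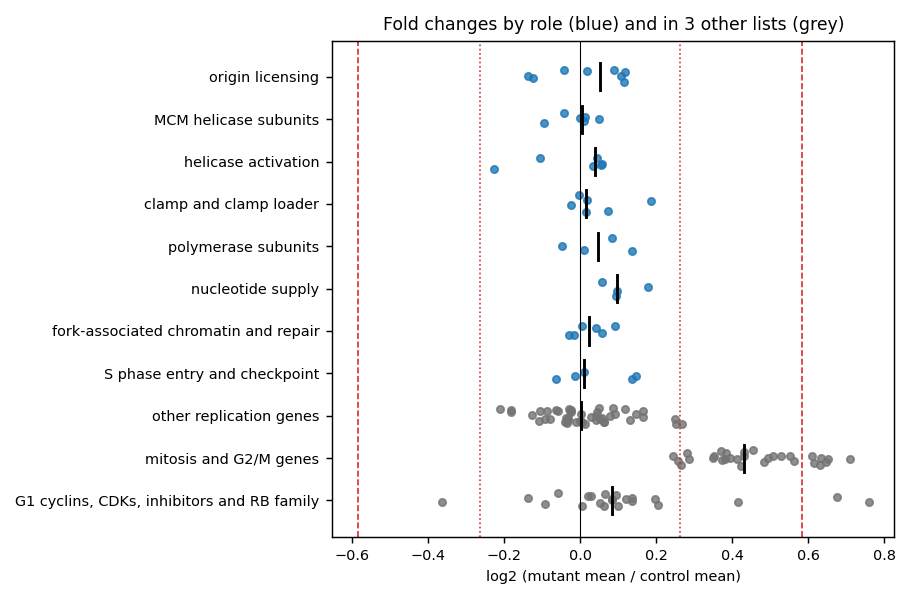
Log2 of the mutant mean over the control mean, 1 point per gene, for the 8 role groups (blue) and 3 other lists (grey), with the median as a black bar, 1.2-fold as dotted lines and 1.5-fold as dashed lines. All blue points lie inside the dotted lines, whereas the mitosis and G2/M genes lie to the right, with a median of 0.43.

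Levels within complexes were compared per kb of exons, using the union of exons in GENCODE vM21. In the controls, the MCM2-7 subunits ranged from 6.66 per kb (*Mcm2*) to 21.4 (*Mcm6*), a 3.22-fold span, and the span was 3.44-fold in the mutants. ORC subunits spanned 9.67-fold, from *Orc1* at 0.981 per kb to *Orc2* at 9.49, and the 4 GINS subunits spanned 4.61-fold, from *Gins2* at 2.60 to *Gins4* at 11.99. The RFC subunits ranged from *Rfc3* at 3.76 per kb to *Rfc1* at 14.0. *Mcm2*, *Orc1* and *Gins2* were the lowest and *Mcm6*, *Orc2*, *Gins4* and *Rfc1* the highest subunits of their complexes in both groups. For RFC, *Rfc5* was the lowest in the mutants, at 4.02 per kb compared to 4.29 for *Rfc3*. The exon union counts isoforms that may not be used in this tissue, which affects levels per kb and leaves the comparison of groups unaffected.

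**Figure D4:**
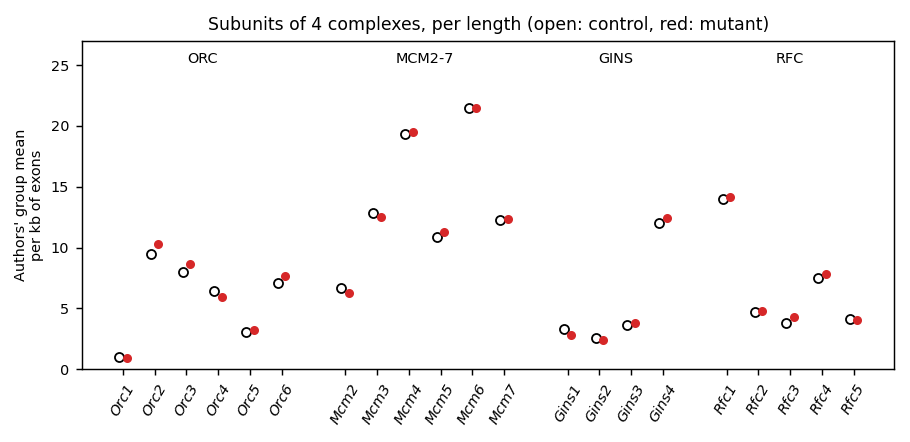
Authors' group mean per kb of exons for the subunits of ORC, MCM2-7, GINS and RFC, with open circles for the control and red points for the mutant mean. The lowest and highest subunit of each complex lie further apart than control and mutant of any subunit, as for *Orc1* at 0.981 and *Orc2* at 9.49 in the controls.

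A list of 46 other replication genes, which shares no gene with the 45, gave the same picture. It holds, among others, replication protein A, the other polymerase subunits, flap endonuclease, DNA ligase, the CDC7-DBF4 kinase and histone chaperones. None was past 1.5-fold, 1 was past 1.2-fold, 25 of the 46 were higher in the mutants (36 when scaled by column totals), and the median was 0.0035 on the log2 scale. The genes named next were chosen after their values were seen. *Dbf4*, which activates the CDC7 kinase, was the highest, with means of 15.2 in control and 18.3 in mutant incisors. *E2f8* and *Dna2* each had a log2 fold change of 0.25, and *Pold2* was the lowest at -0.21. *Rpa1*, the large subunit of replication protein A, had means of 79.7 and 82.2.

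Genes of mitosis and G2/M, the most closely related part of the cell cycle program, had higher means in the mutants. All 30 genes of that list were higher, by 0.25 to 0.71 on the log2 scale and by 0.43 at the median. Past 1.5-fold were 7 of the 30. In the second background, 52.8% of genes were higher and 3.28% were past 1.5-fold higher. *Mki67*, a marker of cycling cells, had means of 176.5 in control and 209.3 in mutant incisors. *Top2a* had 137.5 and 178.0. *Cdk1*, the kinase that drives entry into mitosis, had 27.6 and 33.0. The furthest 4 were *Ccnb2* (13.3 and 21.8), *Cenpf* (46.7 and 73.5), *Nusap1* (24.99 and 39.1) and *Ccnb1* (22.9 and 35.6), which encode mitotic cyclins, a kinetochore protein and a spindle protein.

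The log2 fold changes of the 30 genes and of the 45 genes did not overlap. The lowest of the 30 mitosis and G2/M genes, *Mki67* at a log2 fold change of 0.25, lay above the highest of the 45 DNA replication and S phase genes, *Rfc3* at 0.19. Of the 46 other replication genes, *Dbf4* (0.269), *Dna2* (0.253) and *E2f8* (0.251) lay above *Mki67* (0.245). That list therefore did overlap the 30 genes. In the second background, 14.5% of the 10611 genes lay above *Rfc3* and 8.95% below *Gins1*. The summed mean of the 45 genes was 1434 in control and 1463 in mutant incisors, a ratio of 1.02, whereas that of the 30 genes was 972.1 and 1308, a ratio of 1.35. All of these lists were chosen with earlier results of these data known. The difference between the 45 and the 30 genes was not tested across mice.

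**Figure D5:**
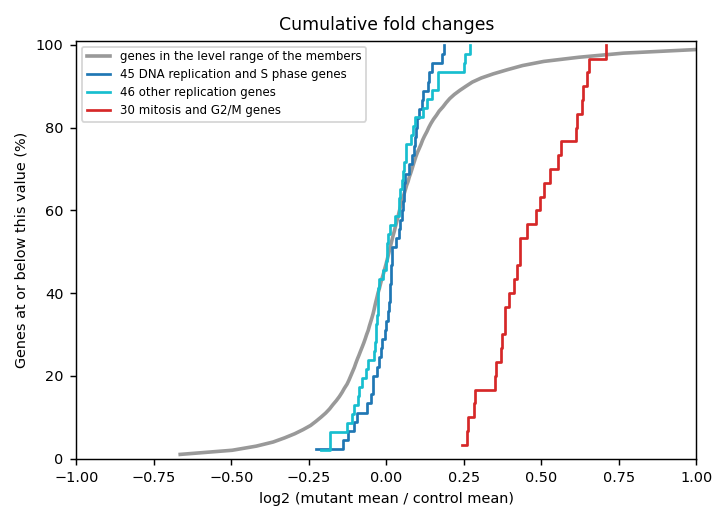
Cumulative share of genes (%) against log2 of the mutant mean over the control mean, for the 45 DNA replication and S phase genes (blue), 46 other replication genes (cyan), 30 mitosis and G2/M genes (red) and the 10611 genes in the level range of the 45 (grey, percentiles 1 to 99). The red curve begins at 0.25, to the right of the end of the blue curve at 0.19. The cyan curve ends at 0.27, beyond the start of the red curve.

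Markers of some other cell types differed between the same groups. Over all 19270 genes, 50.5% had the higher mean in the mutants (63.7% when scaled by column totals). Past 1.5-fold higher and lower were 7.37% and 5.80%. The markers were not counted with column totals. All 12 dental epithelium markers were higher in the mutants and past 1.5-fold, by 1.18 at the median on the log2 scale. Their summed mean was 1751 in control and 10580 in mutant incisors, and the furthest were the enamel genes *Enam* (log2 3.87), *Amelx* (3.45) and *Ambn* (2.44), and *Krt15* (2.09). Of 10 incisor mesenchyme markers, 8 had lower means, with a median of -0.29. *Gli1*, the site of the *CreER* knock-in, was the only marker of the 10 past 1.5-fold. The part of the knock-in allele in its value was not tested. Immune markers were higher for 7 of 8 (summed means of 238.7 in control and 272.0 in mutant incisors), and endothelial markers for 5 of 7 (404.3 and 423.5). No immune or endothelial marker was past 1.5-fold, and the endothelial median was 0.055 on the log2 scale. Erythroid and neutrophil markers were lower for 8 of 10, and among them *Hbb-bs*, *Alas2* and *Hba-a1*, which belong to red cells, were past 1.5-fold. The dissection described in the methods was of mesenchyme, and epithelial markers were present in both groups. The part of these other cell types in the levels of the replication and mitosis genes was not tested.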

How the data were processed

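The processed tables of bulk RNA-seq from 3 control and 3 mutant samples were used. Per the labels and the methods, reads were trimmed, mapped to the mm10 genome and analysed in Partek Flow by the authors. The submitters' processing notes name TopHat2 2.0.8, and the counting of reads and its use of strand are not given in the sources used here. The deposited group means are a normalized signal, averaged over the 3 libraries of each group. The scaling was inferred from the upper quartiles, which are the same in all libraries. The library summary has 4 other numeric columns, which were not used. The 4 columns of the authors' own comparison (p-values, FDR, ratio and fold change) and their filtered table hold the study's findings and were not used either.

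Ratios of mutant over control means, their log2 values, and counts past 1.5-fold, the fold used in the study's methods, were computed here with Python 3.11.15, numpy 2.4.6 and pandas 2.3.3, and tested on simulated data. The test planned for values per library could not be run on group means. The 45 genes, the 8 other lists and the rule for named genes (all 45, *Mki67*, *Top2a*, *Cdk1*, *Arid1b*, and of the other lists the genes past 1.5-fold or the furthest 4) were chosen with earlier results of these data known. Lengths and positions are from GENCODE vM21 on GRCm38, where all 45 names matched 1 gene, and promoters are from RefSeq on GRCm38.p6. Alternatives were the fold threshold, the scaling, a value added to both means, filters on the mean, and the mean in place of the median. The values of 1 marker gene are not reported here.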

Additional observations from a re-analysis of the deposited data

How the results depend on the processing

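No paired analysis was possible because the table holds group means, and for the same reason no library could be left out. The count of DNA replication and S phase genes past 1.5-fold was 0 under every alternative run for it: 1.2-fold and 2-fold, both scalings, 1 added to both means, and means of at least 1 or 10 (45 and 37 genes). Their median log2 fold change moved from 0.018 to 0.079 with column totals and to 0.041 with a mean of at least 10. The alternatives for the other lists, and those for every count of genes with the higher mean, were chosen after seeing the data. Of the mitosis and G2/M genes, 28 were past 1.2-fold and 0 past 2-fold, and their median was 0.49 with column totals, 0.41 with 1 added, and 0.46 as a mean. Of the other replication genes, 1 was past 1.2-fold, and their median was 0.064 with column totals and 0.014 as a mean. The counts past a fold follow from the threshold, and column totals add 0.061 to every log2 value by construction.

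With 1 read at each library's lowest value and nothing subtracted, the *Orc1* means would be 396 reads in controls and 439 in mutants. These are totals over 3 libraries. Exons of 15 of the 45 genes overlap those of another gene, 14 of them on the opposite strand, and *Pcna* and *Tyms* have pseudogenes by name, so their values are less certain.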

Other observations

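The regulators that act before S phase were examined as a further list of 22 genes (G1 cyclins, their kinases, CDK inhibitors, and the RB and E2F families). Their median log2 fold change was 0.085, with 18 of 22 higher in the mutants and 2 past 1.5-fold higher. Over all genes, 50.5% were higher (63.7% when scaled by column totals) and 7.37% were past 1.5-fold higher. The list was not counted with column totals, and its difference from all genes was not tested. *Ccnd1* and *Ccnd2*, cyclins of G1, had means of 246.2 and 422.4 in the controls and 264.1 and 486.6 in the mutants. *Cdk2* and *Cdk4* had 34.2 and 181.7 in the controls and 35.7 and 185.4 in the mutants. Of the CDK inhibitors, *Cdkn2a* and *Cdkn2b* were past 1.5-fold at low levels, with means of 0.286 and 1.22 in the controls and 0.457 and 2.07 in the mutants. *Cdkn2c* was higher, at 24.7 against 18.5, and *Cdkn1c*, known for holding stem cells at rest, was lower, at 184.3 against 237.0. *Cdkn1a* and *Cdkn1b* had log2 fold changes of 0.14 and 0.021. *Rb1* had 57.1 in the controls and 65.5 in the mutants. These genes, apart from the pair past 1.5-fold, were named after their values were seen.

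Of the 18 mitosis and G2/M genes with CHR letters in their promoter, the median log2 fold change was 0.43, and that of the 7 without was 0.42. *Cdk1*, with a log2 fold change of 0.26, is the 1 gene of that list with E2F letters.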
